A study of Mus musculus with 35 samples.

Results

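The genes followed here are 9 that mark microglia at rest in the adult brain, often called homeostatic: *P2ry12*, *P2ry13*, *Gpr34*, *Cx3cr1*, *Siglech*, *Tmem119*, *Fcrls*, *Olfml3* and *Sall1*. They were listed by name for their use in adult microglia, with no threshold on a measured value, and are 9 of the 53465 genes of the bulk table and 9 of the 24262 genes of the single-cell tables. All 9 passed the filter on low values in both data types. The question was how far this set is already switched on before birth, in which sorted populations it is found, and at what level it appears in cells labelled *Mof* knockout.

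The study sorted cells from the E14.5 mouse brain by FACS and sequenced their RNA in bulk and as single cells. In bulk, neural cells, mural cells (pericytes and smooth muscle), endothelial cells and microglia came from 3 wild-type brains, which gives 12 libraries and n = 3 per population. Values of bulk libraries are given below in the order of the brains' numbers in the labels, as the first, the second and the third brain. For bulk, microglia were gated as CD45 medium and CD11b+ without PECAM1 or PDGFRβ, mural cells as PDGFRβ high, endothelial cells as PECAM1+ and CD102+, and neural cells by the absence of all these markers. RNA of neural cells was extracted with another kit than RNA of the other 3 populations, so kit and population cannot be told apart for neural cells. Single cells were processed with mCEL-Seq2, in which molecular identifiers count transcripts at the 3' end, from wild-type brains on plates 1 to 3 and from brains labelled *Mof* knockout on plates 4 to 6. No Cre driver, treatment or sex is given in the labels, nor are the cells that lost *Mof*, and the sort gate is given for wild-type wells only. In these wells the microglia gate is labelled CD45 medium and CD41 positive with low PDGFRβ and PECAM1, and CD11b is not named. Single wild-type cells came from 3 independent brains per the study's methods, but which plate holds which brain is not stated, so p-values over plates measure the spread between plates, which may be technical.

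Bulk depth ran from 17638358 to 98414914 reads on genes per library. No library stood apart from its label: the summed level of 12 microglia markers (*Ptprc*, *Itgam*, *Csf1r*, the C1q chains and others) was 397427 to 455459 normalized counts in microglia and at most 1479 in any other library. Wild-type wells of the 4 sort gates were kept where the cell had more than 1500 transcripts, which left 123 neural, 210 mural, 225 endothelial and 128 microglia cells. The microglia gate kept 64, 58 and 6 cells on plates 1, 2 and 3, at a median of 10761 transcripts per cell. All 6 cells of plate 3 are from the library titled 11, whose file and well list carry the number 12, so its gates rest on joining these numbers. Each well barcode was used in 5 or 6 of the 11 wild-type libraries, as the plate design sets it, so cells were told apart by library and barcode together.

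Microglia are the resident macrophages of the brain. They derive from yolk sac progenitors and settle in the neural tissue before the vessels and the barrier mature. In the adult, they survey their surroundings with moving processes, and the genes studied here serve that state. *P2ry12* and *P2ry13* encode receptors for ADP released by injured cells, *Gpr34* a related receptor for lysophosphatidylserine, and *Cx3cr1* the receptor for fractalkine, a ligand made by neurons. *Siglech* encodes a sialic acid-binding lectin, *Tmem119* a membrane protein of microglia, *Fcrls* a protein related to Fc receptors, and *Olfml3* a secreted olfactomedin-domain protein. *Sall1* is a zinc finger transcription factor that holds microglial identity and is also used by progenitors of other organs and of the nervous system.

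The genes lie at separate loci with 1 exception. *P2ry12* (ENSMUSG00000036353) is at chr3:59216272-59262871 and *P2ry13* (ENSMUSG00000036362) at chr3:59207892-59210882 of GRCm38, side by side on the minus strand within *Med12l*, which runs on the plus strand. *P2ry12* shares 9 exon bases (0.353% of its exon length) with *Med12l*. *Gpr34* (ENSMUSG00000040229, chrX:13632089-13640858) lies within *Cask* on the opposite strand without shared exon bases. *Cx3cr1* (ENSMUSG00000052336, chr9:119901616-120069879) shares 78 exon bases (1.73%) with *Gm33858*, a gene on the opposite strand. *Siglech* (ENSMUSG00000051504) is at chr7:55768178-55778925, *Tmem119* (ENSMUSG00000054675) at chr5:113793729-113800516, *Fcrls* (ENSMUSG00000015852) at chr3:87250758-87263738, *Olfml3* (ENSMUSG00000027848) at chr3:103722222-103738001 and *Sall1* (ENSMUSG00000031665) at chr8:89027235-89044162, and none of these shares exon bases with a neighbour.

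Promoters are shown for 4 genes that were nearly confined to one population in the data below, the neighbours *P2ry12* and *P2ry13* and the surface genes *Siglech* and *Fcrls*. Each runs from 250 bases before to 50 bases after the RefSeq start of transcription on GRCm38.p6, 5′ to 3′ on the strand of the gene. Capitals mark GAGGAA or AGGAAGT, letters taken from the purine-rich sequence bound by PU.1 (*Spi1*), the macrophage transcription factor, on either strand. Both would overlap in GAGGAAGT, which was found in none of the promoters of the 9 genes.
P2ry12, chr3:59262936-59263235, minus strand: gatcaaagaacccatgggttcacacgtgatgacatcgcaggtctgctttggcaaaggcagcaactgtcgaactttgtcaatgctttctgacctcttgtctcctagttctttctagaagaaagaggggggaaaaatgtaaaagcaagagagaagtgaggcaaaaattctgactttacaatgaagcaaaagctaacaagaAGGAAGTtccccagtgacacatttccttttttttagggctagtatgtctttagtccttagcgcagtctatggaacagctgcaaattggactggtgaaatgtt
P2ry13, chr3:59210833-59211132, minus strand: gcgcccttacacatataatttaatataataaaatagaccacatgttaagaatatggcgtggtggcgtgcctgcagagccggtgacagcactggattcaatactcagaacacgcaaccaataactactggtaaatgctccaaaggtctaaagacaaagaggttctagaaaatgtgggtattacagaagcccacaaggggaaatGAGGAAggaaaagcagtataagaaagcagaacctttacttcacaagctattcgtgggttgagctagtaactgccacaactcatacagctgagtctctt
Siglech, chr7:55767934-55768233, plus strand: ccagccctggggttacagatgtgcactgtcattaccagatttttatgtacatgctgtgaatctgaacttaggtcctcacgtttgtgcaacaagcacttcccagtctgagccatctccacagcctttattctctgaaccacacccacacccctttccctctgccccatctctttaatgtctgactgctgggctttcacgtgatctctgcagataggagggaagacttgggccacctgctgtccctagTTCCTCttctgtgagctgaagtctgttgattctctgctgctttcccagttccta
Fcrls, chr3:87263475-87263774, minus strand: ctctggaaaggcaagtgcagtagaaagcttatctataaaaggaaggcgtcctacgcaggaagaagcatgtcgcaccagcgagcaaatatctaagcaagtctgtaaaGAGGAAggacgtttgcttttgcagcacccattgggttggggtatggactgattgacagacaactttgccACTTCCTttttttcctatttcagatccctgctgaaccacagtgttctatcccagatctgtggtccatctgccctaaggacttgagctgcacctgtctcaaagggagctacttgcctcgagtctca

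The match began at position -52 from the start in *P2ry12*, at -48 in *P2ry13*, at -4 in *Siglech*, and at -144 and -75 in *Fcrls*. RefSeq promoters were found for 7 of the 9 genes, 9 promoters in all. AGGAAGT was in 3 of these 9, counting 1 of the promoters of *Sall1* (at -181), and in 9.35% of the 32851 promoters of the table. GAGGAA was in 3 of the 9 and in 28.3% of all. *Cx3cr1* and *Olfml3* held neither sequence in this window. These are matches of letters, and binding was not measured.

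In bulk, *P2ry12*, an ADP receptor gene, stood at 64898, 57349 and 46750 normalized counts in the microglia of the first, the second and the third brain. It was at 0 in all 3 mural libraries, at 0.554 to 1.34 in the neural ones, and at 0, 0 and 176 in the endothelial ones. Microglia lay far above every other library, and the endothelial library of the third brain was the single one of the others with more than a few reads. The difference between microglia and the mean of the other 3 populations was 14.62 ± 1.31 on the log2(normalized count + 1) scale (SE, adjusted p = 5.38e-06, limma with Benjamini-Hochberg adjustment over 19765 genes). Against neural cells the level was 57370 times as high, and against mural cells at least 67130-fold higher, taking 3 reads over the group as the floor. Against endothelial cells it was 958 times as high, with all endothelial reads in the third brain.

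*P2ry13* had 10539, 11154 and 11425 normalized counts in microglia, a spread of 454 (SD) around a mean of 11039. It was at 0 in the neural libraries, at 0, 58.2 and 0 in the mural ones and at 0, 1.42 and 0 in the endothelial ones. Here the mural library of the second brain was the one that held reads, 51 of them. The difference was 12.63 ± 1.08 (SE, adjusted p = 3.67e-06, limma).

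*Gpr34* reached 14962, 13161 and 11595 normalized counts in microglia and was at 0 in all 3 neural libraries. The mural libraries gave 27.1, 0 and 5.64 and the endothelial ones 7.09, 0 and 4.52. Its microglial level was at least 18440-fold higher than the neural one, and 62 of its 68 mural reads were in the first brain. The difference from the mean of the others was 12.24 ± 0.92 (SE, adjusted p = 1.46e-06, limma).

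*Cx3cr1* was the steadiest of the set between brains, at 46151, 46458 and 48423 normalized counts in microglia (coefficient of variation 2.62%, against a median of 15.9% over the 5368 genes with at least 1000 counts in microglia). Elsewhere it was at 0 to 14.2. The difference was 13.96 ± 0.84 (SE, adjusted p = 2.39e-07, limma). Its ligand gene *Cx3cl1* was low in microglia and in mural cells, with 333 ± 17.1 (SD) normalized counts in neural cells, 342 ± 300 in endothelial cells, 29.3 ± 29 in mural cells and 15.9 ± 26.4 in microglia, a difference of -4.54 ± 1.23 (SE, adjusted p = 0.0112, limma) that passed the test here but not with edgeR or DESeq2 on recovered reads.

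Among the surface proteins, *Siglech* had 11429, 13789 and 14820 normalized counts in microglia. All other libraries together held 3 reads of it, and the neural ones none. The difference was 13.33 ± 0.48 (SE, adjusted p = 6.9e-09, limma). *Tmem119* was at 10527, 10354 and 9924 in microglia, a coefficient of variation of 3.02%. It was at 6.09 to 10.7 in neural libraries, at 42.5, 0 and 0 in endothelial ones and at 283, 0 and 110 in mural ones, the widest spread in mural cells of these receptors and surface proteins. The difference from the mural cells, 8.34 ± 1.95 (SE, adjusted p = 0.00581, limma), was not called without the third brain (9.27, adjusted p = 0.0615).

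*Fcrls* was the most restricted of the 9 in bulk. It had 50478, 49843 and 65668 normalized counts in microglia, no read in the 6 mural and endothelial libraries and 1 read in the neural ones. The level was at least 65930-fold higher than in mural cells and at least 35320-fold higher than in endothelial cells. The difference was 15.67 ± 0.42 (SE, adjusted p = 1.39e-09, limma). *Olfml3* was also highest in microglia, at 9147, 10369 and 13933 normalized counts, but was present everywhere. Mural libraries held 635, 412 and 1411, endothelial ones 93.9, 176 and 259, and neural ones 84.1, 91.4 and 105. All 3 microglia libraries lay above all others, 13.6 times the mural mean, and the difference was 5.62 ± 0.37 (SE, adjusted p = 5.33e-07, limma).

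*Sall1* departed from the other 8. It had 3449, 4358 and 2840 normalized counts in microglia and 3429, 3501 and 3825 in neural cells, so that these populations overlapped. The mural libraries gave 402, 324 and 209 and the endothelial ones 72.6, 0 and 16.6. Microglia and neural cells differed by -0.04 ± 1.15 (SE, adjusted p = 0.988, limma), an interval that leaves room for differences of either sign. This SE rests on a spread shared by all 4 populations, not on microglia and neural cells alone. Over brains the coefficient of variation was 128% in endothelial cells, 31.1% in mural cells, 21.5% in microglia and 5.87% in neural cells. Against mural cells the difference was 3.53 ± 1.15 (adjusted p = 0.0317, limma), a call lost without the first brain (3.75, adjusted p = 0.066), without the third (3.42, adjusted p = 0.226) and without the filter on low values (adjusted p = 0.0545), and against endothelial cells 8.33 ± 1.15 (adjusted p = 1.96e-04, limma). With 5 added in place of 1 before the log, the difference from mural cells was 3.51 and kept the call (adjusted p = 0.00289, limma). Its difference from the mean of the other 3 populations, 3.94 ± 0.94 (adjusted p = 0.00553, limma), passed the call, but without the second brain it fell below 10-fold (3.22) and without the third brain it lost the adjusted p (4.13, adjusted p = 0.0793). The exact two-sided permutation test of 3 microglia libraries against the 9 others gave p = 0.109 for *Sall1* and p = 0.00909, the smallest it can give, for each of the other 8.

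**Figure D1:**
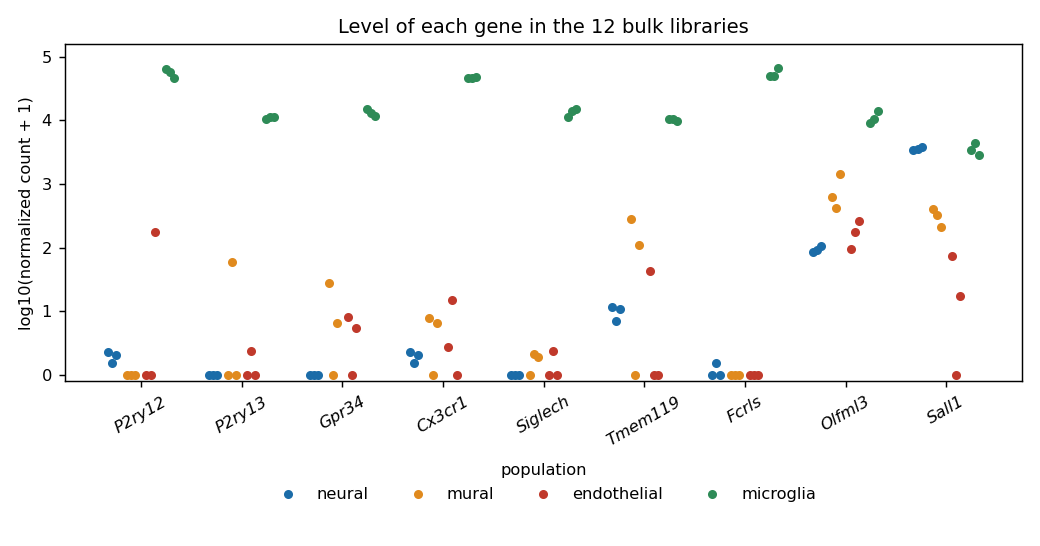
Level of each of the 9 genes in the 12 bulk libraries as log10(normalized count + 1), 1 point per library, with colours for the population. Microglia stand above all other libraries for 8 genes, whereas the microglia and neural points of *Sall1* overlap between 2840 and 4358 normalized counts.

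Enrichment was called where the difference exceeded 10-fold at an adjusted p below 0.05. By this call 9 of 9 genes were higher in microglia, against 8.27% of the 19765 genes tested, and none was lower, against 7.45%. The 3 microglia libraries lay above the 9 others for 8 of the 9, against 11.5% of all genes. Taken singly, microglia exceeded neural cells in 8 of 9 (background 29.3%) and was lower in none (background 30.4%), and it exceeded mural cells in 9 of 9 (20.1%) and endothelial cells in 9 of 9 (17%), at an adjusted p under 0.05. The genes were listed for their known use in microglia, so these counts describe them at this age and are not evidence about genes in general.

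**Figure D2:**
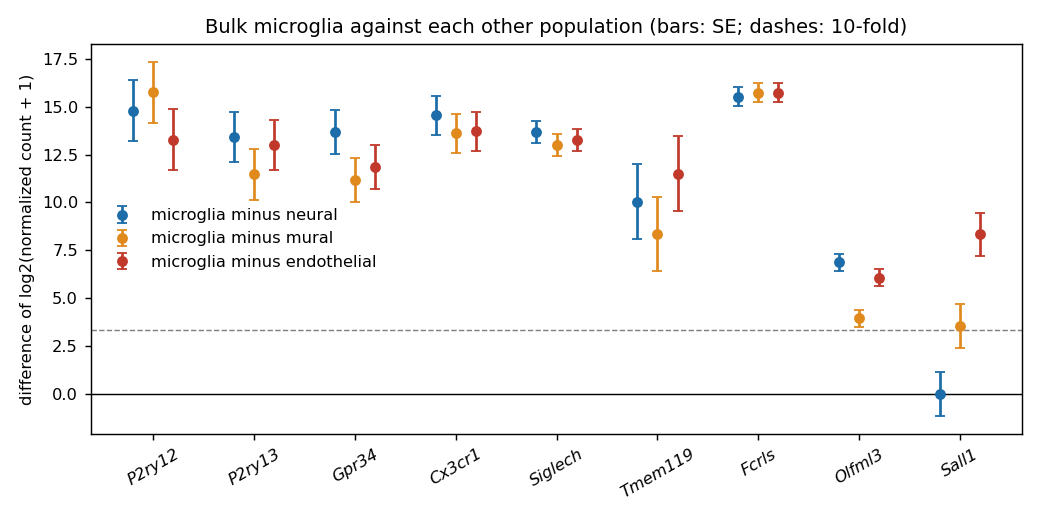
Difference of log2(normalized count + 1) between bulk microglia and each other population for the 9 genes, as estimate ± SE from limma, with a dashed line at 10-fold. For 7 genes all differences are above 8, *Olfml3* is lowest against mural cells at 3.93, and *Sall1* runs from -0.04 against neural cells to 8.33 against endothelial cells.

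Outside microglia, 2 genes differed between the remaining populations. *Sall1* was higher in neural cells than in the mean of mural and endothelial cells by 5.96 ± 0.99 (SE, adjusted p = 3.85e-04, limma), where 32.2% of all genes were higher. *Olfml3* was lower by 1.87 ± 0.40 (SE, adjusted p = 0.002, limma), where 28.4% were lower. The other 7 passed the filter on low values through microglia and had few reads in these populations, from 1 read of *Fcrls* in the neural libraries to 765 of *Tmem119* in the mural ones, so this contrast was not read for them. Traces of the set outside microglia were small: the summed level of the 7 genes without *Sall1* and *Olfml3* was 0.00825% to 0.154% of its microglial mean in mural and endothelial libraries and 0.00375% to 0.00646% in neural ones. The 12 microglia markers stood at 0.215% to 0.351% in mural and endothelial libraries and 0.0377% to 0.0385% in neural ones. The part of stray microglia or of their RNA in these traces was not tested.

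Set against exon length, the levels in bulk microglia spanned from 23706 ± 3838 normalized counts per kb (SD, n = 3) for *Fcrls* to 674 ± 145 for *Sall1*. *Fcrls* and *P2ry12* (22126 ± 3581) overlapped, then came *Cx3cr1* (10435 ± 274) and *Gpr34* (6334 ± 806), each apart from its neighbours. *Tmem119* (4436 ± 134), *P2ry13* (4367 ± 180) and *Siglech* (3945 ± 514) overlapped in this order, and *Olfml3* (1810 ± 404) lay apart from *Siglech* above it and *Sall1* below it. The exon length of *Olfml3* joins all annotated transcripts and is 6161 bases, the longest of the set, which lowers its value per kb if shorter transcripts prevail. Per length, 8 of the 9 were above at least 95.6% of the tested genes present in microglia, and *Sall1* above 87.4%. Between genes of the set the coefficient of variation over brains had a median of 13%, and ran from 2.62% (*Cx3cr1*) to 22.3% (*Olfml3*).

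The genes of the pathways around the set were read against the same contrast, in which the median of all tested genes was -0.02. In the counts for these lists, higher and lower mean over 10-fold at an adjusted p below 0.05, as for 8.27% and 7.45% of all genes. Of 19 further purinergic genes and partners, 15 could be tested, 9 were higher in microglia and 1 was lower (median difference 4.03). *P2ry6*, a UDP receptor that triggers phagocytosis, was higher by 10.55 ± 1.10 (SE, adjusted p = 1.77e-05), the potassium channel gene *Kcnk13* by 8.35 ± 0.91 (adjusted p = 2.59e-05), the adenosine receptor gene *Adora3* by 8.22 ± 0.66 (adjusted p = 2.38e-06), and *P2rx7*, an ATP-gated channel gene, by 5.97 ± 0.88 (adjusted p = 2.39e-04, all limma). *Adora2a*, another adenosine receptor gene, named after its values were seen as the single lower one, was lower by 3.44 ± 0.40 (adjusted p = 3.91e-05, limma). It had 4721 normalized counts in endothelial and 2793 in mural cells against 91.2 in microglia, and 57.7 in neural cells. DESeq2 on recovered reads called 6 higher and none lower in this list. *Med12l*, the host of the ADP receptor genes, had 1142 ± 87.9 (SD) normalized counts in microglia and 695 ± 69 in neural cells, and whether counting used the strand is not given in the sources used here.

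Of 12 genes that set the macrophage lineage, 9 were higher by over 10-fold and none lower (median 6.26), and with quantile normalization 8 were higher and 1 lower. They included *Spi1*, which encodes PU.1, by 13.23 ± 0.55 (SE, adjusted p = 1.52e-08), *Csf1r*, the receptor for the growth factors CSF1 and IL-34, by 12.62 ± 0.76 (adjusted p = 2.43e-07), *Tfec*, a transcription factor gene of macrophages, by 9.07 ± 0.35 (adjusted p = 1.16e-08) and *Runx1*, a regulator of blood formation, by 8.35 ± 1.15 (adjusted p = 1.45e-04, all limma). *Mef2c* (3.02) and *Mef2a* (1.13) were also higher at an adjusted p below 0.05 (limma), but under 10-fold. TGF-β signalling maintains adult microglia, and of 9 genes of this axis 2 were higher and 1 lower by over 10-fold (median 0.87). Under 10-fold but at an adjusted p below 0.05 (limma), *Tgfbr2* (3.11), *Tgfbr1* (3.09) and *Itgav* (0.87) were higher and *Smad4* (-1.44) was lower. *Nrros*, which holds latent TGF-β at the microglial surface, was higher by 5.82 ± 0.64 (adjusted p = 2.74e-05) and *Tgfb1* itself by 3.93 ± 0.22 (adjusted p = 1.44e-07). *Itgb8*, an integrin gene whose product releases TGF-β, was lower by 4.44 ± 1.17 (adjusted p = 0.00961, limma) and had 2270 normalized counts in neural cells, 80.9 in mural cells and 3.52 in endothelial cells against 1.98 in microglia. It was lower with edgeR as well, whereas DESeq2 called none of the 9 lower.

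Of 18 other genes used for adult homeostatic microglia, 13 were higher by over 10-fold and none lower (median 6.65). The remaining ones were higher by 0.89 to 3.09, under 10-fold but each at an adjusted p below 0.05 (limma). *Trem2*, a lipid receptor, was higher by 13.64 ± 0.46 (SE, adjusted p = 4.81e-09) and *Crybb1* by 12.64 ± 0.47 (adjusted p = 8.31e-09, both limma). Among the relatives of single members, *Sall3* was higher by 4.70 ± 0.84 (adjusted p = 8.85e-04), with 1711 normalized counts in microglia and 1182 in neural cells, and *Sall2* (-2.56, adjusted p = 0.0035, under 10-fold) and *Sall4* (-2.43, adjusted p = 0.161) were not called. Of the Siglec genes and their adaptors, 9 of 9 tested were higher (median 7.69), led by the adaptor *Tyrobp* (13.72 ± 0.57, adjusted p = 1.52e-08) and *Cd33* (11.29 ± 0.64, adjusted p = 1.61e-07). *Fcrl1* was the single other Fc receptor-like gene tested, at 387 normalized counts in microglia and 0 in the remaining libraries (8.57 ± 0.35, adjusted p = 1.35e-08). *Olfml2a* was lower by 4.24 ± 1.18 (adjusted p = 0.0127, all limma), a call that neither edgeR nor DESeq2 made.

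Across the 12 libraries, the 5 further genes most like the mean profile of the set were *Ctss* (Pearson's r = 0.991), *Tmem156* (0.99), *Clec4a2* (0.989), *3300005D01Rik* (0.989) and *Ly9* (0.989). *Ctss*, a lysosomal protease, had 62926 ± 10169 normalized counts (SD, n = 3) in microglia and at most 0.437 elsewhere. The members themselves correlated with their mean profile at 0.915 to 0.989, other than *Sall1* at 0.539. These values describe 12 libraries that fall into 4 populations and are given without a test.

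Markers of other blood and border cells were present in the sorted microglia. Summed over 8 markers of border macrophages (*Mrc1*, *Pf4*, *Lyve1* and others, which sit at vessels and meninges), the microglia libraries held 31454 to 40483 normalized counts and the endothelial ones 6150 to 8196. *Stab1* made up most of the endothelial sum, with a mean of 7244 there and 16486 in microglia. No other tested marker of this list had an endothelial mean above 97.2. Of the 7 tested, 6 were higher in microglia, with *F13a1* (10.66 ± 1.24, adjusted p = 4.18e-05), *Ms4a7* (9.57 ± 0.38, adjusted p = 1.21e-08) and *Mrc1* (9.04 ± 0.96, adjusted p = 2.03e-05, all limma) leading. Markers of monocytes and neutrophils summed to 3233, 2522 and 9480 in microglia and at most 37.2 elsewhere, and none of the 7 was at 0 in all microglia libraries. The border macrophage sum was also highest in the third brain, at 40483 against 31489 in the first and 31454 in the second. Of the 9 genes, *P2ry12*, *Gpr34*, *Tmem119* and *Sall1* were lowest in the third brain and *Cx3cr1*, *Siglech*, *Fcrls*, *P2ry13* and *Olfml3* highest. A link between these levels and the marker sums was not tested. In bulk, fewer cells of a type and less RNA per cell cannot be told apart.

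In single cells of the microglia gate, *P2ry12* and *Cx3cr1* were each found in 121 of 128 cells (94.5%, exact Clopper-Pearson 95% interval 89.1 to 97.8), and *Fcrls* in 120 (93.8%, 88.1 to 97.3). *Olfml3* was found in 88.3%, *P2ry13* in 85.2%, *Siglech* in 82% and *Gpr34* in 77.3% of the cells. *Tmem119* (57.8%, interval 48.8 to 66.5) and *Sall1* (53.9%, 44.9 to 62.8) were found least often. In neural cells, which should lack the receptors, the shares were 0% to 2.44% for the 8 genes other than *Sall1*, at a median of 7717 transcripts per cell. For *Gpr34* and *Tmem119* the 0 of 123 neural cells allows a share of up to 2.955% with a transcript (upper bound of the exact interval), which is no limit on the share that expresses them. All intervals cover counting error only.

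Thinned to 1500 transcripts per cell, which makes the gates comparable in depth, the microglia shares were 77.3% for *Cx3cr1*, 76.6% for *P2ry12* and 73.4% for *Fcrls*. They dropped to 49.2% for *Olfml3*, 39.1% for *Siglech*, 36.7% for *P2ry13*, 26.6% for *Gpr34*, 20.3% for *Tmem119* and 13.3% for *Sall1*. The share of cells with a transcript therefore depends on depth for the last 6 in particular. Thinned shares in the other 3 gates were at most 5.24%, the value of *Olfml3* in mural cells.

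**Figure D3:**
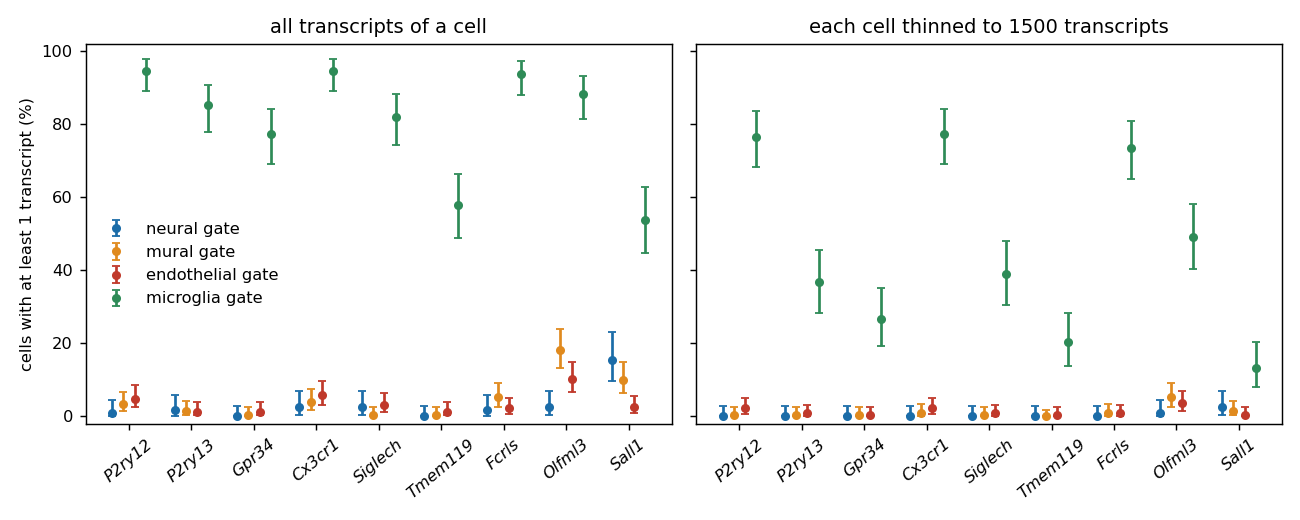
Share of wild-type cells with at least 1 transcript of each gene, by sort gate, with exact 95% intervals, for all transcripts (left) and after thinning each cell to 1500 transcripts (right). The microglia gate stands above the other gates for every gene, from 53.9% to 94.5% on the left and from 13.3% to 77.3% on the right.

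In CPM, identifiers of the summed cells of a plate scaled to a common total, *Cx3cr1* was highest at 1229, 1295 and 1632 on plates 1, 2 and 3. *Fcrls* (1178, 1119 and 933) and *P2ry12* (1128, 1069 and 912) followed with overlapping plates. Next came *Olfml3* at 474 ± 57.2 CPM (SD, n = 3), *P2ry13* at 383 ± 112, *Siglech* at 358 ± 74.3 and *Gpr34* at 269 ± 27.6, where each overlapped the next. *Tmem119* (143 ± 14.47) and *Sall1* (134 ± 30.9) were lowest and overlapped. The order resembled the order per length in bulk with Spearman's rho = 0.65 over the 9 genes, and the farthest apart was *Olfml3*, which ranked 4 of 9 in single cells and 8 of 9 in bulk.

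Against the mean of the other 3 gates, 8 of 9 genes passed the call for enrichment in the sums per plate (background 4.61% of 9281 genes) and none was lower (background 7.63%), with log2 fold changes from 5.30 ± 0.25 (SE) for *Olfml3* (adjusted p = 4.91e-26) to 7.98 ± 0.39 for *Gpr34* (adjusted p = 3.33e-25, edgeR quasi-likelihood test). *P2ry12* had 7.95 ± 0.34 (adjusted p = 6.45e-28) and *Cx3cr1* 7.57 ± 0.37 (adjusted p = 8.3e-26). *Sall1* was higher by 3.27 ± 0.28 (adjusted p = 3.7e-15), short of 10-fold, and reached 10-fold when plate 2 was left out (3.42). Plate by plate, *Sall1* was at 114, 118 and 170 CPM in the microglia gate and at 29, 50.4 and 36.5 in the neural gate. Unlike in bulk, these plates did not overlap. Bulk and single cells also differ in unit, in the kits used and in the labelled microglia gate, and what sets the results apart was not tested. This single comparison was made after the bulk values were seen and was not tested.

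Transcripts of the set in other gates were few per cell. In the wild-type libraries 1056 barcodes had no well, with a median of 95 identifiers, and held 64 identifiers of the 7 genes other than *Sall1* and *Olfml3*, or 0.0606 per barcode. The neural gate held 0.0894 per cell, the mural gate 0.157 and the microglia gate 48.7. The endothelial gate held 0.582, but 3 of its 225 cells clustered with microglia, 2 of them with 61 and 48 identifiers of the 9 genes, and without these 3 it held 0.153. Beside 2 identifiers of *Sall1* and 13 of *Olfml3* in the 1056 barcodes, *Sall1* had 37 in the 123 neural cells and 31 in the 210 mural cells. *Olfml3* had 50 in the mural cells and 27 in the 222 endothelial-gate cells outside the microglia-like cluster.

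Most cells of the microglia gate held most of the genes. Of the 9, a median of 8 were found per microglia-gate cell, 100 of 128 cells (78.1%) had 7 or more, and 34 had all 9. At 1500 transcripts the median was 4. The median cell held 12 identifiers of *Cx3cr1*, 11 of *Fcrls* and 9.5 of *P2ry12*, with highest values of 50, 40 and 40, while *Tmem119* and *Sall1* had a median of 1. In the gate, 2 cells had none of the 9. One had 1720 transcripts, 4 identifiers of the microglia markers and 5 of the monocyte and neutrophil markers, and the other had 9279 transcripts with 30 and 21.

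Cells of the microglia gate with border macrophage transcripts carried most of the set. At least 3 such transcripts were found in 36 of the 128 cells, mainly of *Mrc1* (47 cells with any) and *Stab1* (53 cells), while *Lyve1* and *Cd163* were found in none. In these 36 cells, *Fcrls* was at 1368 CPM against 1030 in the other 92, and *Cx3cr1* at 1217 against 1302. *P2ry12* was at 690 against 1292, *Siglech* at 294 against 444, *Tmem119* at 98.8 against 160 and *Sall1* at 69.6 against 142. The median number of genes found was 8 in both sets of cells. Median depth was 12350 transcripts in the 36 cells and 9659 in the others, and these values come from cells of 3 plates pooled, without a test.

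Among the cells labelled *Mof* knockout, microglia-like cells were found on plate 5 and not on plates 4 and 6. MOF is a histone acetyltransferase encoded by *Kat8*. In the clustering made without the 9 genes, 1 of 13 clusters was microglia-like, with C1q chain genes, *Ctss* and *Csf1r* leading, and it took 127 of the 128 microglia-gate cells, 79 of the 195 kept cells of plate 5 and none of plates 4 and 6. Cells of plate 4 were mainly mural-like, with 164 of 337 in the largest cluster. Cells of plate 6 were mainly endothelial-like, with 142 of 350 in the largest. The gates of these plates are not given, so no loss of microglia was read from them. *Kat8* itself was at 14.2 CPM (exact Poisson 95% interval 7.08 to 25.4) in the 79 cells and at 14.8 CPM (9.07 to 22.9) in the wild-type microglia gate, so no lower level was detected in the cells with the knockout label. The deleted part of the gene is not given, and a 3' tag outside it cannot check the label.

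In these 79 cells, 8 of the 9 genes were below all 3 wild-type plates, as were 25.1% of the 1405 genes with a mean of at least 100 CPM, and *Fcrls* was within their range. Without plate 3, all 9 were below the remaining plates, as were 47.7% of these genes. *P2ry12* was at 391 CPM (exact Poisson interval 348 to 437), against 1128, 1069 and 912 on wild-type plates 1, 2 and 3, or 0.377 of their mean. *Sall1* was lowest relative to wild type at 40 CPM (27.2 to 56.8), or 0.298 of the mean. *P2ry13* stood at 143 CPM (118 to 172, 0.373 of the mean) and *Siglech* at 163 (135 to 193, 0.454). *Olfml3* was at 266 CPM (0.56), *Cx3cr1* at 802 (740 to 868, 0.579) and *Gpr34* at 193 (0.719). *Tmem119*, at 121 CPM (98 to 148, 0.851), was below wild-type plates of 126.1 to 153 but with an interval that spans plate 1 and almost reaches the others. *Fcrls* had 940 CPM (873 to 1011) against 933 to 1178. Of the plates with the knockout label 1 held microglia-like cells, so no test was made, and plate and genotype cannot be told apart.

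**Figure D4:**
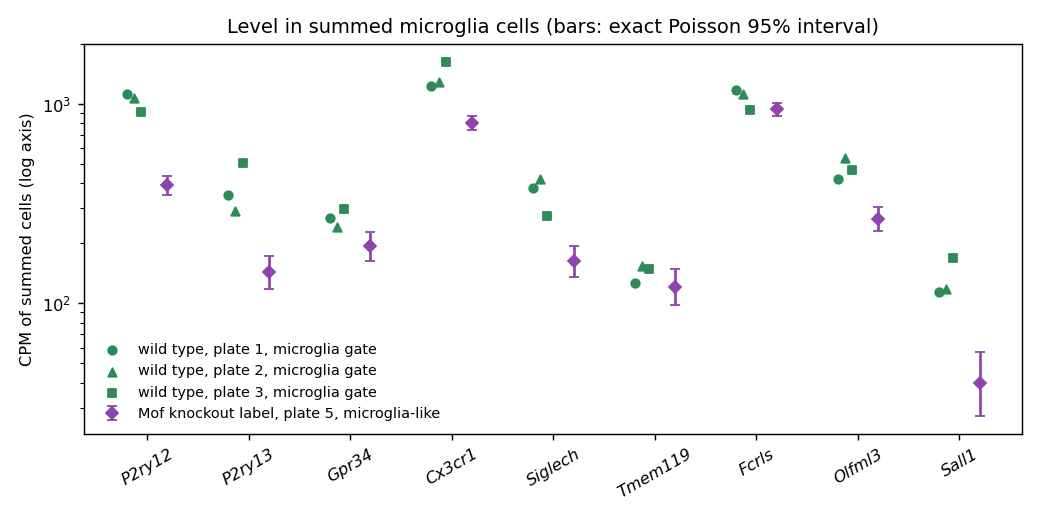
Level of the 9 genes in summed cells as CPM on a log axis, for the microglia gate of wild-type plates 1 to 3 (green) and the microglia-like cells of plate 5 labelled *Mof* knockout (purple, with exact Poisson 95% intervals for counting error). The purple point is below all green ones for 8 genes, against 25.1% of 1405 genes, and within them for *Fcrls*.

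The 4 libraries of the plate gave 32, 29, 8 and 10 of these cells. Summed over the 9 genes they ranged from 2609 to 3595 CPM, below the 5193, 5243 and 5342 CPM of the wild-type plates. *P2ry12* ran from 277 to 491 CPM between libraries, *Cx3cr1* from 663 to 935 and *Sall1* from 22.5 to 58.1, all below each wild-type plate. *Fcrls* was widest in absolute terms, from 631 to 1383 CPM, and overlapped wild type. *Gpr34* (133 to 264) and *Tmem119* (13.2 to 179) overlapped as well. *Tmem119* at its lowest stands for 1 of 8 cells with a transcript.

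As shares of cells thinned to 1500 transcripts, *P2ry12* was found in 39.2% of the knockout-labelled cells against 76.6% of the wild-type gate, *Cx3cr1* in 58.2% against 77.3%, and *Sall1* in 7.59% against 13.3%. *Fcrls* was found in 67.1% against 73.4%. Before thinning, the shares were 72.2% and 94.5% for *P2ry12*, 87.3% and 94.5% for *Cx3cr1*, 21.5% and 53.9% for *Sall1*, and 87.3% and 93.8% for *Fcrls*. Median depth was 9195 transcripts in the 79 cells and 10761 in the gate. A median of 6 of the 9 genes was found per cell, 30 of 79 (38%) had 7 or more, and 6 had none.

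**Figure D5:**
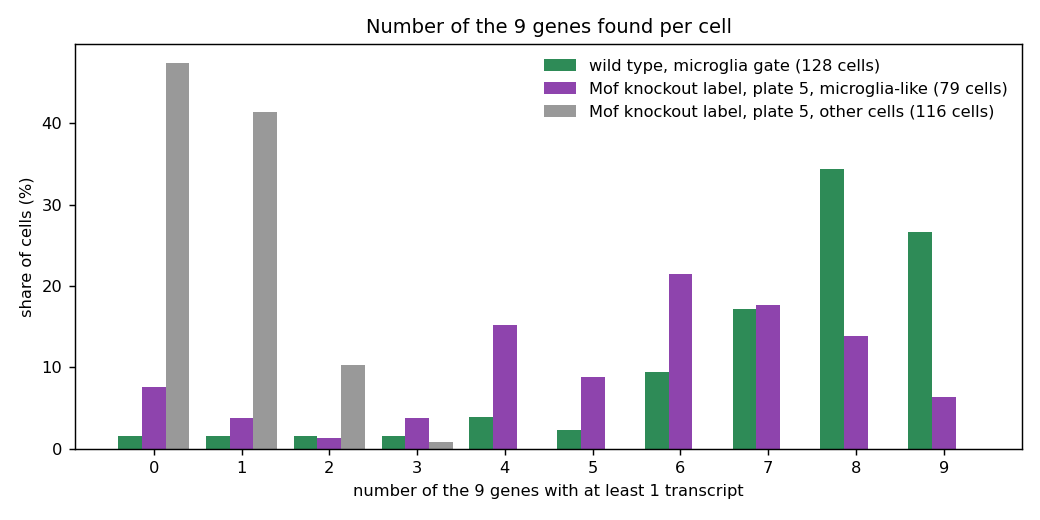
Share of cells by the number of the 9 genes with at least 1 transcript, for the wild-type microglia gate (128 cells), the microglia-like cells (79) and the other cells (116) of plate 5 labelled *Mof* knockout. The gate peaks at 8 genes with a median of 8, the microglia-like cells of plate 5 have a median of 6, and the other cells have at most 3.

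Other markers moved with this difference. The 12 microglia markers summed to 12100 CPM in the 79 cells and to 16510, 16200 and 18190 on the wild-type plates. The border macrophage markers summed to 1900 CPM against 285, 204 and 42.4, with none of the 7 measured genes at 0 in the 79 cells. *Pf4*, a chemokine gene of border macrophages, was found in 35 of 79 cells (44.3%) and in 6 of 128 in wild type (4.69%), and *Lyve1*, a hyaluronan receptor gene, in 13 and in 0. Neural markers stood at 85.1 CPM against 20.5 to 25.5, and monocyte and neutrophil markers at 204 against 63.6 to 172. The knockout-labelled cells were chosen by cluster and the wild-type cells by gate, but 127 of 128 gate cells were in the same cluster.

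With the cells that had 3 or more border macrophage transcripts set aside, 35 knockout-labelled and 92 wild-type cells remained, and all 9 genes were below each wild-type plate, as were 26% of the 1405 genes (49.4% without plate 3). For *Gpr34* (210 CPM, 160 to 271, against 245 to 297), *Siglech* (221, 169 to 283, against 276 to 476) and *Olfml3* (353, 287 to 430, against 426 to 595) the counting interval reached the lowest plate. *P2ry12* was at 577 CPM (492 to 673) against 912 to 1326, *Cx3cr1* at 852 (747 to 967) against 1247 to 1632, and *Sall1* at 92.7 (60.5 to 136) against 138 to 170. *Fcrls* was at 798 (697 to 910) against 933 to 1079. This choice was made after the data were seen. In the 44 cells set aside *Sall1* was at 10.1 CPM, found in 4 cells, and *P2ry12* at 285 CPM, found in 36, while *Fcrls* was found in all 44 at 1021 CPM. In the 32 cells with 10 or more such transcripts, 1 held *Sall1*.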

How the data were processed

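Bulk libraries were deposited by the authors as normalized counts, a signal on a linear scale made by scaling read counts per library (undoing the scaling gave whole reads, within 0.01, for 100% of 124078 values of up to 100 reads). Single cells were deposited by the authors as corrected transcript numbers, another unit close to estimated counts, in which identifiers drawn more than once from a pool of 4096 are corrected. Shares and CPM use the identifiers before that correction. The submitters' processing notes name BWA 0.6.2-r126, STAR, featureCounts, DESeq2 and mm10, with no role given. Of the bulk gene identifiers, 53360 (99.8%) were in GENCODE vM21, used for names and exon lengths.

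The bulk fit was limma 3.58.1 (R 4.3.3) with a variance trend on log2(normalized count + 1), for genes with a mean of at least 10, calling an adjusted p under 0.05 (Benjamini-Hochberg, two-sided) and, for enrichment, over 10-fold. A fold change on this scale is understated for low genes, and that of a gene at 0 depends on the pseudocount. Sums per plate and gate (50756 to 959426 transcripts) were tested with edgeR 4.0.16, on rounded sums of these numbers. Clusters used scanpy 1.11.5 (Leiden, resolution 1, 30 principal components, 2000 variable genes) without the 9 genes. Doublets were not called. Tests were checked on simulated data.

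The 9 genes and the lists around them were chosen with earlier results of these data known. Named by rule were up to 4 called genes of a list, by absolute difference, and the 5 genes most correlated with the mean profile. *Adora2a*, *Med12l*, *Sall2*, *Sall4*, *Mef2c*, *Mef2a*, *Tgfbr1*, *Tgfbr2*, *Itgav*, *Smad4* and, in bulk, *Stab1* were named after their values were seen. Some genes of the lists are not reported here by name. Proteins were not used here, and promoters of *Tmem119* and *Gpr34* were not analysed here.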

Additional observations from a re-analysis of the deposited data

Results flagged for a closer look

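Plates 4 and 6, labelled *Mof* knockout, had no microglia-like cell and entered no comparison, yet transcripts of the 9 genes were counted there, at 84.4 CPM summed on plate 4 and 34.6 CPM on plate 6. On plate 4 most were of *Sall1* (111 identifiers) and *Olfml3* (100), and the other 7 genes gave 26 identifiers in 337 cells, or 0.0772 per cell. On plate 6 these 7 gave 31 in 350 cells, or 0.0886 per cell, beside 0.0606 per wild-type barcode without a well. In 23 wild-type cells of a gate for medium or low PDGFRβ, also outside the comparisons, the 9 genes summed to 123 CPM, with 11 identifiers of *Sall1* and at most 3 of any other gene. Between the 4 libraries of plate 5, *Olfml3* was at 329 CPM in 1 library, far from the other 3 beside their range, but with 8 cells and a counting interval of 213 to 486 CPM that covers the other 3 libraries. Chance sets about 1 in 20 such groups apart, and 9 genes were looked at.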

How the results depend on the processing

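Of the 9 genes, 8 or 9 were called higher in bulk microglia than in the mean of the other populations under every alternative run, 7 or 8 against neural cells, 7 to 9 against mural cells and 8 or 9 against endothelial cells. DESeq2 gave no adjusted p for *P2ry13*. Adding 5 in place of 1 before the log moved the count of genes called lower in microglia to 953 from 1472. With DESeq2, 2 of the 9 were called in neural against mural and endothelial cells. The second was *P2ry12* (5.66, adjusted p = 0.0137, against -0.28), with 6 neural reads, no mural read and 117 endothelial reads in 1 library, so no direction was read from it. With the brain number as a replicate block, which residuals of same-numbered libraries do not bear out as a pairing (correlations of -0.054 to 0.0801), 1615 genes were called higher and 1468 lower. With the plate as a replicate block (-0.0263 to 0.0848), 430 were higher and 702 lower in single-cell sums. Neither block changed how many of the 9 were called. In these sums, 786 genes were higher without a filter on low counts, against 428, and leaving out 1 plate gave 450 to 814 lower, against 708. The lowest count came without plate 1. The median share of microglia-gate cells with a transcript, over the 9 genes, was 85.2%, and became 39.1% thinned to 1500 transcripts, 89.2% in cells above 3000 transcripts, and 81.25% to 88.57% without 1 plate. The 9 genes summed to 3059 CPM in microglia-like cells of plate 5, to 1466 CPM over all its cells, and to 2795 to 3332 CPM without 1 library. Sparse counts limit *Tmem119* and *Sall1* most, and plate 3, with 6 microglia-gate cells, weighs as much as the others in means over plates.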
